A study of Homo sapiens with 8 samples.

Results

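The DNA replication and S phase genes are 47 genes whose products license replication origins, unwind and copy DNA, supply nucleotides and rebuild chromatin behind the fork. Their open chromatin was followed by ATAC-seq, in which a transposase cuts and tags accessible DNA, in JJN3 and KMS11, established lines of human multiple myeloma, a plasma cell cancer. All peaks whose nearest transcript in the authors' annotation carried a member's symbol were taken, 79 of the 62528 peaks of the deposited table. Of these, 38 lay within 1000 bp of the transcript start (promoter peaks), of 15930 such peaks in the series, and 41 lay farther off (distal peaks), of 46598, with 27 of the 41 inside the authors' transcript of the gene and 14 outside it. The peaks belonged to 42 of the 47 genes, 37 with a promoter peak and 25 with a distal one. MCM2, MCM4, FEN1, RPA1 and ORC6 had no peak under their symbol, and TYMS, GINS3, CDC45, ORC3 and DUT had distal peaks only. Each line was kept for 48 h in pomalidomide (200 nM), in GNE-781 (40 nM), in the combination of these, or in the solvent DMSO, with 1 library for each line and treatment, 8 in all. Pomalidomide binds the ubiquitin ligase receptor cereblon and leads to loss of the transcription factors IKZF1 and IKZF3, and GNE-781 is an inhibitor of EP300 and CREBBP, acetyltransferases found at enhancers. The study asked how the drugs, singly and together, alter accessible chromatin. Both lines are cultured tumour lines, so a treatment effect could be checked only by its repetition in the other line, and the labels do not say whether these 8 libraries carry the BATF or the eGFP construct that the design text names.

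Replication begins where the origin recognition complex (ORC1 to ORC6), with CDC6 and CDT1, loads the ring-shaped MCM helicase onto DNA, a step that geminin (GMNN) restrains. CDC45 and the GINS complex then switch the helicase on, RPA coats the exposed single strands, the polymerases extend primers behind the sliding clamp PCNA, and FEN1 and LIG1 finish the lagging strand. Many of these genes are transcribed late in G1 under E2F transcription factors, which bind close to the start, often beside CCAAT boxes bound by NF-Y. In these cells the genes are of interest because myeloma lines divide continuously while their normal counterpart, the plasma cell, does not.

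Promoter sequences of 300 bases, 250 before and 50 after a transcript start, came from RefSeq (GRCh38.p14) and were matched by symbol for 41 of the 47 members, the exceptions being MCM4, MCM5, GINS4, POLD3, RPA2 and RPA3. Where a member had several windows, the one with most bases in its own promoter peak, or else in any peak, was taken. All 41 windows so chosen overlapped a peak of the series. The windows they are compared with were not chosen in this way. The letters of E2F sites (TTTGGCGC, TTTCCCGC, TTTGCCGC, TTTCGCGC or GGCGGGAA on either strand, some of which overlap one another) were present in 23 of the 41 windows (56.1%), against 1466 of the 15814 windows that overlap a peak (9.27%) and 1958 of all 35116 windows (5.58%). CCAAT on either strand was present in 22 (53.7%), against 35% of the windows that overlap a peak, and 13 members held both. Other letters were less unequal between members and windows that overlap a peak: GGGCGG of Sp1 sites in 75.6% against 71.4%, CCGGAAG of ETS sites in 14.6% against 18.7%, GCGCATGC of NRF1 sites in 7.32% against 5.67%, and TGGGAA, the core bound by Ikaros proteins, in 26.8% against 21.2%. TTTGAA, the CHR letters of mitotic genes, and TGANTCA, the AP-1 letters, were each found in 1 member (2.44%), against 8.69% and 4.51%. These are matches of letters and not measured sites. The 5 promoters below are those to which the results return, chosen after their values were seen: MCM3 and PCNA for the difference between the lines, RRM2 and GMNN for the lowest p-values under the combination, and CDC6 for GNE-781. Capitals mark the E2F and CCAAT letters, 5′ to 3′ on the strand of the gene.
MCM3: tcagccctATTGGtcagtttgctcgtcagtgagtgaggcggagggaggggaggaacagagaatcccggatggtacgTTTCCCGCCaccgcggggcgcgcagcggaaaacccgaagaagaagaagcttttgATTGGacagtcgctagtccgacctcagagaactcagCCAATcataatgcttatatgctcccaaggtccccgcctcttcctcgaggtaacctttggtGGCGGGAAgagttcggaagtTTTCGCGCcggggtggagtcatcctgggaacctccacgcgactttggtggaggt
PCNA: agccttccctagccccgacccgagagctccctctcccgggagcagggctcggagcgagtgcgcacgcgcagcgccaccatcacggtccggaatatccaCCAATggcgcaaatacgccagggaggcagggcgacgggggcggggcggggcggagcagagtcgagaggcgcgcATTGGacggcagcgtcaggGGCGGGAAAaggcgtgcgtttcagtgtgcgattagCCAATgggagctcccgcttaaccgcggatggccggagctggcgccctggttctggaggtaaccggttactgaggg
RRM2: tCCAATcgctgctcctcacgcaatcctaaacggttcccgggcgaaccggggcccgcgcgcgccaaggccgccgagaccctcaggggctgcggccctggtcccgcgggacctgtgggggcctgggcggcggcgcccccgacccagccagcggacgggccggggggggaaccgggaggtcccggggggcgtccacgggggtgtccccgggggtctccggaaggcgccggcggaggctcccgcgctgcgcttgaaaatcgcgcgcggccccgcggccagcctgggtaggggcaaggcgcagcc
GMNN: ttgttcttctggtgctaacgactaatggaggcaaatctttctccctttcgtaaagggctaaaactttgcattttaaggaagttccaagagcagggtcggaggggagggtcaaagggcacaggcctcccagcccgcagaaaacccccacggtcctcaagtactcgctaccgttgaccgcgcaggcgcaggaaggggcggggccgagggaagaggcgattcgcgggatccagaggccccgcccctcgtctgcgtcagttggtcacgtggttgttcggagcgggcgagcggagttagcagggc
CDC6: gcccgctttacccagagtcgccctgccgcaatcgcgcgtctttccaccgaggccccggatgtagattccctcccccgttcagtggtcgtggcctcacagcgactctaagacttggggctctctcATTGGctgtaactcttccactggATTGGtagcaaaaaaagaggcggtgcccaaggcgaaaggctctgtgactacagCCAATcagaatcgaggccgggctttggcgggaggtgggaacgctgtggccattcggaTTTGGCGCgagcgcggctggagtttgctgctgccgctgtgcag
MCM3 (chr6:52284693-52284992, minus strand), PCNA (chr20:5126573-5126872, minus strand) and CDC6 (chr17:40287629-40287928, plus strand) held both kinds of letters. RRM2 (chr2:10122318-10122617, plus strand) held CCAAT only, and GMNN (chr6:24774687-24774986, plus strand) held neither. Each of the 5 windows lay wholly inside the gene's own promoter peak.

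The JJN3 libraries held 1366628 to 3218581 counts and the KMS11 libraries 2981408 to 5435673, of which 47.5% to 50.9% lay in promoter peaks. Of 10 plasma cell marker genes, 8 had a promoter peak (TNFRSF17 and JCHAIN had none), with a summed level of 301.6 to 345 CPM (counts per 1e6 counts of the library) in JJN3 and 232.2 to 265.8 in KMS11. Of the 5 myeloid markers none had a promoter peak, and 1 of 5 B cell, 1 of 5 T cell, 1 of 4 erythroid and 2 of 5 stromal markers had one. All 79 member peaks passed the filter of a mean of at least 2 CPM, with at least 162 counts over the 8 libraries at each promoter peak and at least 76 at each distal peak. Levels below are CPM after scaling by edgeR's TMM factors, and changes are log2 changes ± SE from edgeR's quasi-likelihood model over all tested peaks, in which the line is a block. Adjusted p is by Benjamini-Hochberg over all 62234 peaks tested, and calls were made where it was under 0.05. In bulk nuclei, a peak open in fewer cells and a peak less open in every cell cannot be told apart.

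Member promoters ranged widely in openness. Per kb of peak, the median of the 38 promoter peaks was 40.6 CPM, against 32.9 over all promoter peaks tested, and the 41 distal peaks had a median of 18.9 CPM per kb, against 21.1 over all distal peaks. The highest level was at MCM3, a helicase subunit, with 123 ± 60.8 CPM per kb (SD, n = 8 libraries), above 99.6% of promoter peaks. RPA3, the smallest subunit of RPA, followed with 104 ± 42.6, then GINS4 with 91.1 ± 34.8, PCNA with 61.8 ± 23.8 and RFC2, a clamp loader subunit, with 61.2 ± 15.9. The SDs of MCM3, RPA3, GINS4, PCNA and RFC2 cover both lines, whose values stand apart at each of these genes. In JJN3, MCM3 had 156.2 to 193.8 CPM per kb, RPA3 115.3 to 155.5 and GINS4 96.2 to 140.6, so that MCM3 did not overlap the other two, while in KMS11 MCM3 (63.1 to 70.8), RPA3 (61.3 to 71.8) and GINS4 (49.9 to 67.1) overlapped. MCM3 was above GINS4 in 8 of 8 libraries and above RPA3 in 6. The lowest levels were at POLE2 (19.2 ± 5.87 CPM per kb), the second subunit of polymerase epsilon, RFC1 (23.9 ± 4.65), the large subunit of the clamp loader, GINS1 (25.3 ± 8.49), PRIM1 (25.6 ± 7.26), the catalytic primase subunit, and MCM6 (26.2 ± 5.53). Neighbours in this order from MCM6 down to RFC1 were each the higher of the pair in 4 of the 8 libraries, and RFC1 was above POLE2 in 6.

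**Figure D1:**
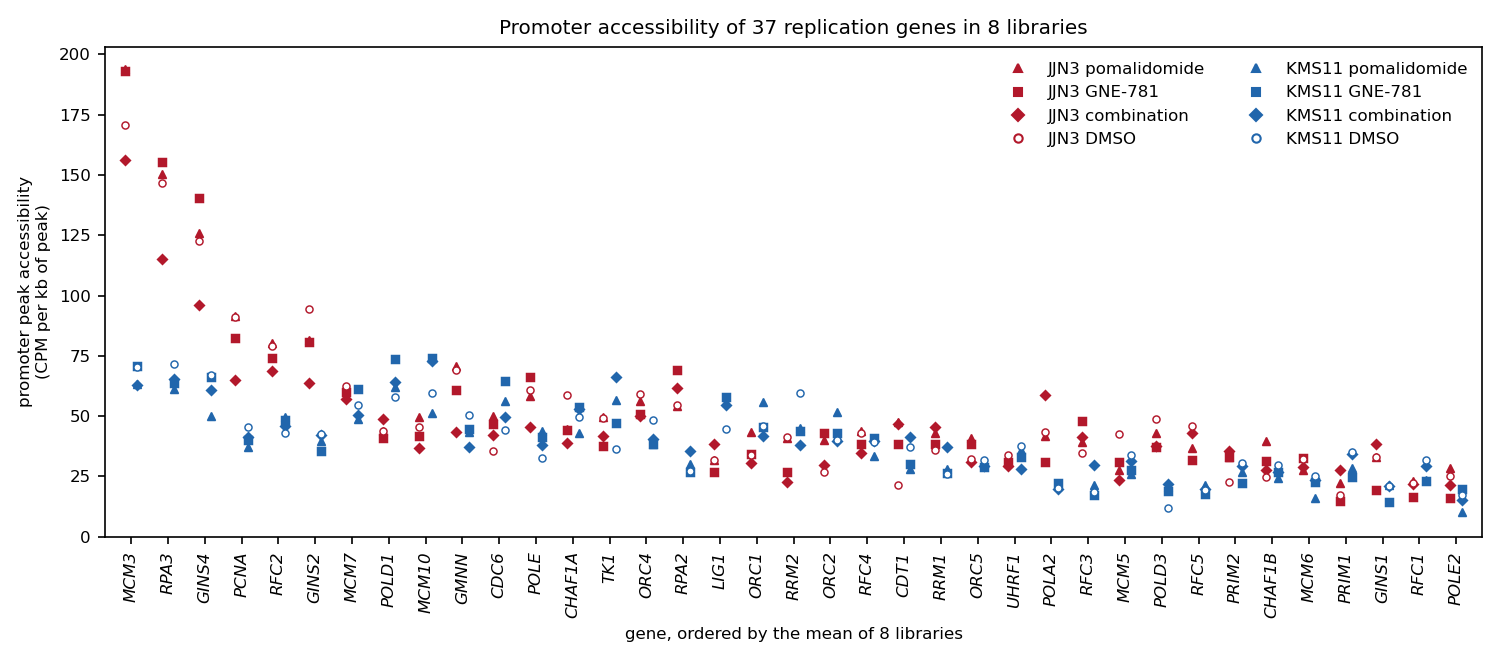
Accessibility of the promoter peak with most counts of each of 37 genes, in CPM per kb of peak (vertical axis, from 0), with genes ordered by the mean of 8 libraries and 1 symbol per library (JJN3 red, KMS11 blue, DMSO open). MCM3, RPA3 and GINS4 stand highest, with every JJN3 library above every KMS11 library there.

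No member promoter was called under any treatment. Under pomalidomide, DESeq2 called 0 of 79 member peaks (background 0.119%). By edgeR the count was also 0 of 79 (background 1.25% of all peaks, 0.49% of promoter and 1.52% of distal peaks). At an unadjusted p under 0.05 there were 1 of 38 promoter peaks (background 6.19%) and 5 of 41 distal peaks (background 12.9%). Under GNE-781, DESeq2 called 0 of all 62234 peaks, so its 0 of 79 says nothing about the members. By edgeR the count was also 0 of 79 (background 0.0209%, with 0.00629% of promoter and 0.0259% of distal peaks). There 2 promoters (background 4.2%) and 3 distal peaks (background 7.4%) had an unadjusted p under 0.05. Under the combination, DESeq2 called 0 of 79 (background 0.633%). By edgeR 2 of 79 were called (background 4.79%), both distal, and 0 of the 38 promoters (background 1.69%). An unadjusted p under 0.05 was found at 3 promoters (background 10.1%) and 10 distal peaks (background 19.9%). With so few members, 0 of 38 promoters does not set them apart from a background of 1.69%. The distal share was near its background (2 of 41, or 4.88%, against 5.85%). Of the 2, 1 was higher and 1 lower, against 2.56% and 3.29% of all distal peaks.

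Most promoter changes, as averages of the 2 lines, had intervals within 2-fold. Such an interval does not bound the change in a single line. How many intervals of all promoter peaks lay within 2-fold is not given here, so these counts show nothing particular to the members. Under pomalidomide the 38 changes ran between −0.47 and 0.43 with a median of 0.00, against 0.04 over all promoter peaks, and 36 of the 38 intervals (95%) lay within a 2-fold change either way. Under GNE-781 they ran between −0.66 and 0.49 with a median of 0.01, against 0.02 over all promoter peaks, with 33 intervals within 2-fold. Under the combination they ran between −0.72 and 0.51 with a median of −0.06, against 0.00 over all promoter peaks, again with 33 intervals within 2-fold. The lines moved in the same direction at 17 of 38 promoters under pomalidomide (44.7%, against 50.8% of all promoter peaks), at 16 under GNE-781 (42.1%, against 50.7%) and at 25 under the combination (65.8%, against 57%). Under the combination 16 of the 38 were lower and 9 higher in both lines, against 4433 and 4637 of all 15906 promoter peaks. The 3 comparisons share the DMSO libraries.

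**Figure D2:**
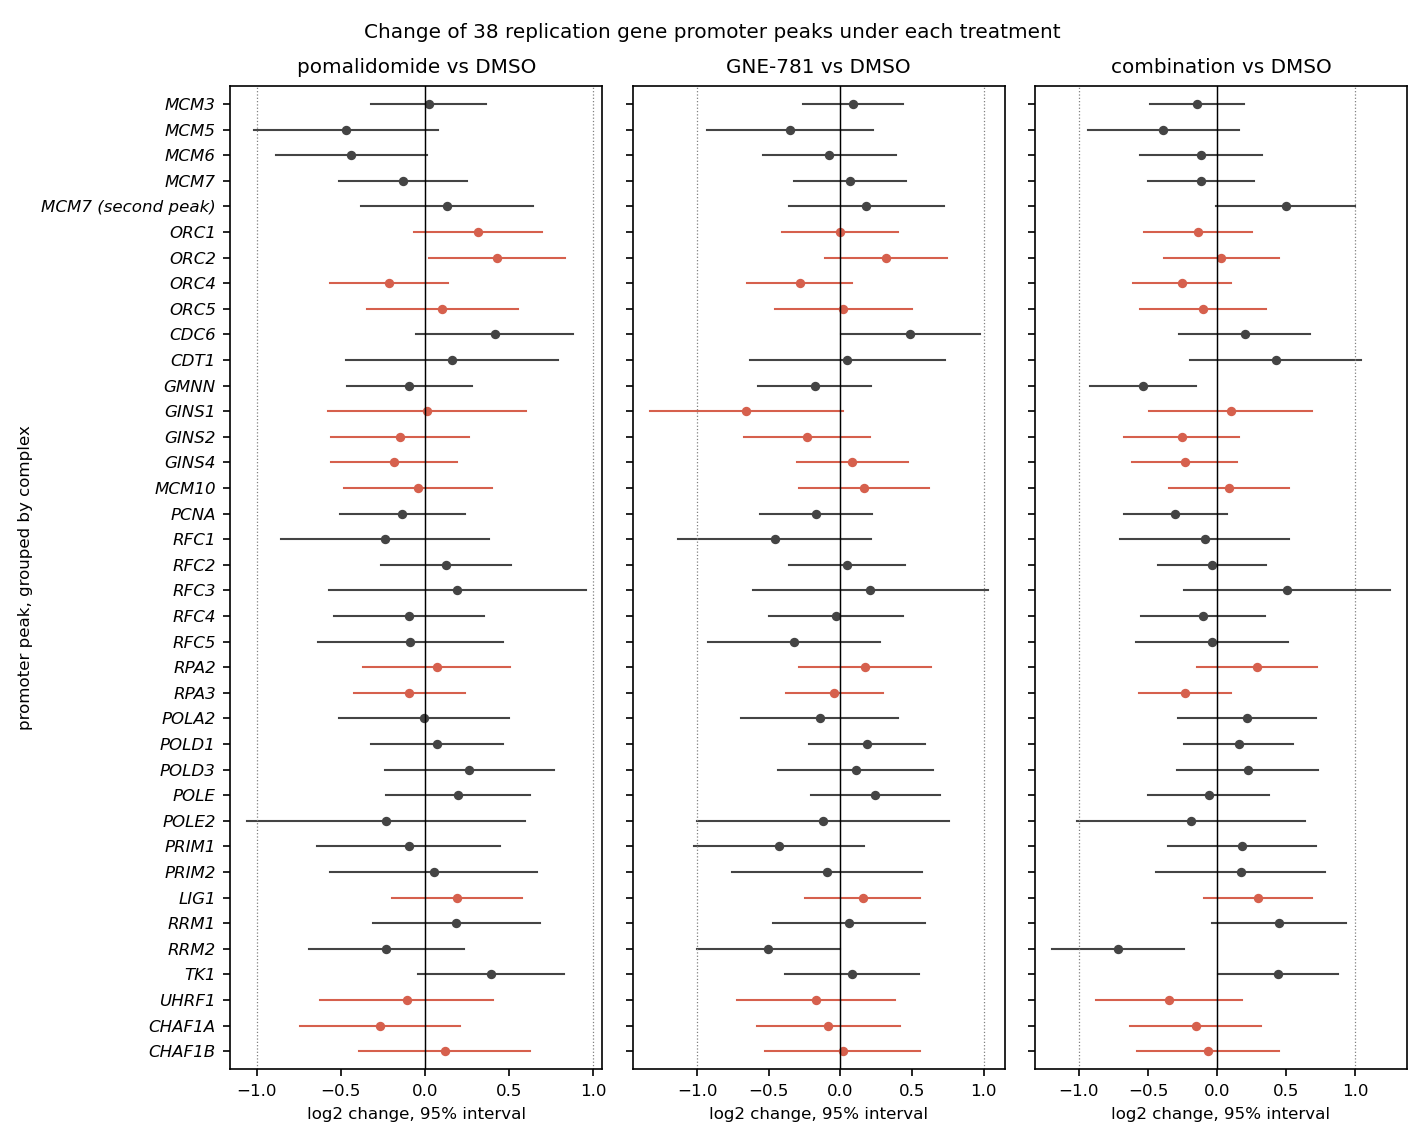
Log2 change of each of the 38 promoter peaks against DMSO with its 95% interval, from the fit over 8 libraries, for pomalidomide, GNE-781 and the combination. Genes are grouped by complex, with alternating colours, and dotted lines mark a 2-fold change. No peak passed the adjusted threshold, and RRM2 has the lowest value under the combination.

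Among the origin and licensing genes no promoter change passed the test, although the highest member values under pomalidomide and under GNE-781 were found here. ORC2 (chr2:200962977-200964007) had the lowest promoter p under pomalidomide, with a change of 0.43 ± 0.20 (adjusted p = 0.400). Its level was 41.3 CPM under pomalidomide, 44.2 under GNE-781, 30.5 under the combination and 27.8 under DMSO in JJN3, and 53.2, 44.3, 40.8 and 41.2 CPM in the same order in KMS11. The pomalidomide and GNE-781 libraries were above DMSO in both lines. Under the combination the 4 ORC promoters ran between −0.26, at ORC4, and 0.03. CDC6, which brings the helicase to the origin complex, had at its promoter (chr17:40287466-40288016) a change of 0.49 ± 0.24 under GNE-781 (adjusted p = 0.757), with 25.6 CPM under GNE-781 and 19.5 under DMSO in JJN3, and 35.6 and 24.3 in KMS11. CDT1, its partner, changed by 0.42 ± 0.31 under the combination.

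GMNN, the inhibitor of CDT1, was the licensing promoter with the lowest p under the combination (chr6:24774651-24775648). It had 70.7 CPM under pomalidomide, 60.9 under GNE-781, 43.2 under the combination and 69.2 under DMSO in JJN3. In KMS11 it had 43.3, 44.6, 37.2 and 50.5 CPM in that order. The combination library was lowest in each line, and both combination values lay below both DMSO values. The change was −0.54 ± 0.19 with an adjusted p of 0.093, which does not pass.

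The MCM helicase subunits, which form the core of the replicative helicase, had 5 promoter peaks with combination changes between −0.39, at MCM5, and 0.50, at the second promoter peak of MCM7 (chr7:100100452-100100958), 352 bp from its start. None was called. MCM6 (chr2:135875625-135876762) had a change of −0.44 ± 0.23 under pomalidomide (adjusted p = 0.465), which was larger in KMS11, with 18.2 CPM under pomalidomide and 28.5 under DMSO there, against 31.7 and 36.8 in JJN3. Of the factors that complete the active helicase, GINS1 (chr20:25407382-25407947) had 10.9 CPM under GNE-781 and 18.8 under DMSO in JJN3 and 8.09 and 11.9 in KMS11, a change of −0.66 ± 0.34 (adjusted p = 0.771). GINS2 had the largest combination change of that group, −0.26 ± 0.21.

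At the fork, PCNA and its loader subunits RFC1 to RFC5 had promoter changes between −0.30 and 0.51 under the combination, the highest at RFC3. RPA2, the middle RPA subunit, changed by 0.29 ± 0.22 and RPA3 by −0.23 ± 0.17. The 7 polymerase and primase promoters stayed between −0.19 and 0.22, with the largest size at POLD3, a subunit of polymerase delta (0.22 ± 0.25, with −0.37 in JJN3 and 0.81 in KMS11), and LIG1, the ligase that joins Okazaki fragments, changed by 0.30 ± 0.20. UHRF1, which reads hemimethylated DNA behind the fork, changed by −0.35 ± 0.27, and the chromatin assembly subunits CHAF1A and CHAF1B by −0.15 and −0.07. None of these was called.

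Nucleotide supply held both the lowest promoter value and some of the highest. RRM2, the small subunit of ribonucleotide reductase made mainly in S phase, had 25.3 CPM under pomalidomide, 16.7 under GNE-781, 14.1 under the combination and 25.6 under DMSO in JJN3 at its promoter peak (chr2:10122294-10122913). In KMS11 it had 28.1, 27.2, 23.5 and 37.0 CPM in that order. The combination library was lowest and the DMSO library highest in each line, and both combination values lay below both DMSO values. The change was −0.72 ± 0.24 under the combination (adjusted p = 0.066; interval −1.20 to −0.24) and −0.50 ± 0.25 under GNE-781 (adjusted p = 0.756). When counts were summed per gene over its promoter peaks and tested over 13679 genes, RRM2 was the 1 member called under the combination, at −0.73 ± 0.21 with an adjusted p of 0.0421 (background 1.89%). This sum holds the same single peak tested over fewer units, and the call was lost in 7 of the 8 fits that leave out 1 library.

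RRM1, the large subunit of the same enzyme, differed in sign from RRM2, with 0.45 ± 0.24 under the combination (adjusted p = 0.346). TK1, the thymidine salvage kinase, had a promoter change of 0.44 ± 0.22 (chr17:78186816-78187596; adjusted p = 0.278) that was seen in KMS11 alone: 51.6 CPM under the combination and 28.5 under DMSO there, against 32.5 and 38.3 in JJN3. Under pomalidomide TK1 likewise had 44.4 CPM and 28.5 under DMSO in KMS11, against 38.7 and 38.3 in JJN3. A low KMS11 DMSO library and a rise under the drugs in KMS11 cannot be told apart with 1 library each. Without that library, which leaves 1 DMSO library, the TK1 changes were −0.12 under pomalidomide and −0.06 under the combination.

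The distal peaks held the 2 calls. The first lay inside RFC1, 12251 bp from its start (chr4:39353257-39354098), and fell under the combination by 1.11 ± 0.26 on the log2 scale (0.464-fold, adjusted p = 0.00543). It had 15.3 CPM under pomalidomide, 14.7 under GNE-781, 11.6 under the combination and 33.8 under DMSO in JJN3. It had 21.9, 12.9, 17.6 and 32.4 CPM in that order in KMS11. Every drug library was below both DMSO libraries. Under GNE-781 alone the change was −1.27 ± 0.28 with an adjusted p of 0.0879, the lowest of any member for that drug, and under pomalidomide it was −0.79 ± 0.25 (adjusted p = 0.104). The RFC1 promoter itself changed by −0.09 ± 0.31 under the combination. The call was lost without the JJN3 combination library (adjusted p = 0.0919), the KMS11 DMSO library (0.0522) or the KMS11 combination library (0.0825).

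The other called peak lay 39068 bp from the start of DUT, whose product removes dUTP (chr15:48370491-48370793), and rose by 2.27 ± 0.68 under the combination (4.81-fold, adjusted p = 0.0353). It is a small peak, with 3 counts under pomalidomide, 1 under GNE-781, 7 under the combination and 1 under DMSO in JJN3, and 15, 14, 42 and 6 counts in that order in KMS11. The combination library was highest in each line, but the JJN3 combination level of 3.39 CPM was below 2 KMS11 libraries. Leaving out either DMSO library or either combination library ended the call, with an adjusted p of up to 0.684.

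Some distal peaks came close to the threshold, and others are given only because they were among the 3 lowest p-values for a drug. A peak inside CDC6, 16762 bp from its start (chr17:40304395-40304655), had 6.30 CPM under the combination and 0.752 under DMSO in JJN3, and 7.12 and 2.59 in KMS11, a change of 1.78 ± 0.56 (adjusted p = 0.0503). A peak inside TYMS, which encodes thymidylate synthase, had a change of −1.39 ± 0.47 (chr18:667052-667340; adjusted p = 0.068), with 8.24 CPM under the combination and 10.5 under DMSO in JJN3, and 0.890 and 6.21 in KMS11. A peak 20156 bp from RFC3 had 1.28 ± 0.46 (adjusted p = 0.0962). Inside the authors' GINS3 transcript, which begins upstream of the RefSeq start, one peak (chr16:58339517-58339772) had the lowest p of any member under pomalidomide, 1.66 ± 0.53 (adjusted p = 0.104), and another (chr16:58338183-58338808) had −1.47 ± 0.45 under GNE-781 (adjusted p = 0.366), which came from a single KMS11 library, 4.53 CPM under GNE-781 against 17.3 under DMSO, while JJN3 had 3.85 and 3.76. Upstream of GMNN (chr6:24768329-24768713), GNE-781 gave −1.22 ± 0.50 (adjusted p = 0.634). Downstream of POLA2, a subunit of the primase-polymerase, a peak (chr11:65308410-65308685) had 1.05 ± 0.49 under pomalidomide (adjusted p = 0.392).

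Summed per gene, distal peaks of 4 of 25 members were called under the combination, against a background of 5.73% of 18475 genes. RFC1 fell (adjusted p = 0.00613), as its single distal peak did, while POLA2 rose by 1.35 ± 0.39 (adjusted p = 0.0251), DUT by 2.26 ± 0.66 (adjusted p = 0.0276) and CDC6 by 1.77 ± 0.56 (adjusted p = 0.0435). The RFC1, DUT and CDC6 sums each hold only the single distal peak given above, tested over fewer units, so they add no separate evidence. The POLA2 sum joins 2 peaks that were not called singly, and in JJN3 the larger of them had 15.0 CPM under the combination and 3.01 under DMSO, against 4.45 and 3.11 in KMS11. The promoters of POLA2 and CDC6 changed by 0.22 ± 0.25 and 0.20 ± 0.24. Which gene a distal peak acts on was not measured.

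**Figure D3:**
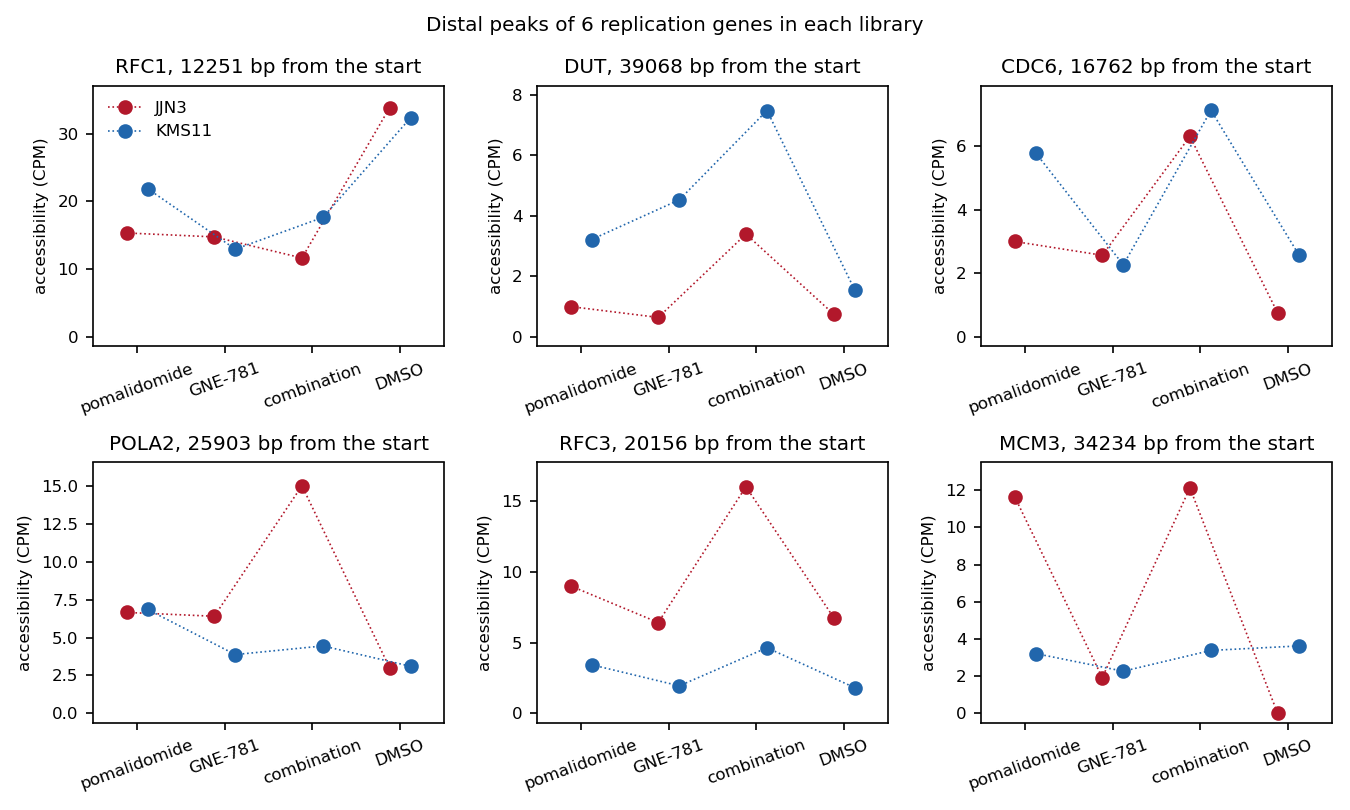
Accessibility in CPM (vertical axis) of 6 distal peaks in each library, by treatment, JJN3 red and KMS11 blue, with dotted lines that only link the libraries of a line. The RFC1 peak is highest under DMSO in both lines, the DUT and CDC6 peaks are highest under the combination in both lines, and the MCM3 peak runs from 0 to 12.1 CPM in JJN3 and from 2.26 to 3.62 CPM in KMS11, a drug response that was not called different between the lines.

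Against the single agents, edgeR called no member under the combination: 0 of 79 against pomalidomide (background 0.0112%) and 0 of 79 against GNE-781 (background 1.09%). At an unadjusted p under 0.05 there were 8 and 10 member peaks (background 7.4% and 10.7%). DESeq2 also called 0 of 79 in each, with backgrounds of 0% and 0.146%. A combined change unlike the summed single-agent changes was called at 0 of 79 (background 0%), again by both tools, with 3 at an unadjusted p under 0.05 (background 2.64%). At the RFC1 peak the excess of the combined change over that sum was 0.95 ± 0.39 (adjusted p = 1.00), so the single changes added to a lower value than the combined one. RRM2 had −0.49 ± 0.23 for the combination against pomalidomide (adjusted p = 0.649) and −0.21 ± 0.25 against GNE-781 (adjusted p = 0.852).

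Between the lines, member promoters were higher in JJN3 where they were called. A line call needed an adjusted p under 0.05 and a 2-fold difference, with treatments as a term, over 4 libraries a line. By this rule 21 of 79 member peaks were called (background 31.9%). All 5 called promoters of the 38 were higher in JJN3 (13.2% in all, against a background of 21.7%; 11.1% of all promoter peaks were higher and 10.6% lower), and the 16 called distal peaks of 41 were 8 higher and 8 lower (39%, against a background of 35.4%, with 17.8% higher and 17.5% lower). Without the 2-fold minimum, 17 promoters were higher in JJN3 and 6 lower, 60.5% in all against a background of 57.8%, with 28.7% of all promoter peaks higher and 29.1% lower. The median difference of the 38 promoters, JJN3 minus KMS11, was 0.24, against −0.05 over all promoter peaks. Member promoters took 0.300% to 0.329% of all promoter counts in the JJN3 libraries and 0.244% to 0.246% in the KMS11 libraries.

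MCM3 differed most among the promoters, at 1.41 ± 0.12 (adjusted p = 9.38e-16). It had 163 CPM under pomalidomide, 162 under GNE-781, 131 under the combination and 144 under DMSO in JJN3, and 53.4, 59.5, 53.1 and 59.3 CPM in that order in KMS11. Every JJN3 library was above every KMS11 library. RPA3 (chr7:7640012-7641277) had 190, 197, 146 and 186 CPM in JJN3 and 77.6, 80.5, 83.0 and 90.9 CPM in KMS11, a difference of 1.11 ± 0.12 (adjusted p = 3.45e-12). PCNA (chr20:5126377-5127356) had 89.6, 80.8, 63.5 and 89.4 CPM in JJN3 and 36.5, 39.1, 40.4 and 44.8 CPM in KMS11, a difference of 1.00 ± 0.13 (adjusted p = 2.95e-09). In both genes the lines did not overlap, and the JJN3 combination library was the lowest of its line.

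The polymerase subunit genes POLD3 (chr11:74592307-74593185) and POLA2 (chr11:65261576-65262336) completed the 5. POLD3 averaged 36.5 ± 4.78 CPM in JJN3 and 16.2 ± 3.82 CPM in KMS11 (SD, n = 4 libraries each), a difference of 1.16 ± 0.18 (adjusted p = 1.05e-07). POLA2 averaged 33.3 ± 8.61 CPM in JJN3 and 15.8 ± 0.765 CPM in KMS11, a difference of 1.08 ± 0.18 (adjusted p = 5.86e-07). PCNA, POLD3 and POLA2 sit at the edge of the 2-fold rule and fell below it when single libraries were left out (4, 2 and 2 of the 8), with adjusted p-values that stayed at or under 0.000703. Just short of 2-fold were RFC5 (0.99), GINS4 (0.99), GINS2 (0.98) and RPA2 (0.98). LIG1 had the most negative difference, at −0.72 ± 0.14 (adjusted p = 1.07e-05), with POLD1, MCM10, PRIM1, RRM2 and ORC1 the other promoters lower in JJN3 by the adjusted p alone.

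The line difference was also read by promoter letters. Among 32 genes with a sequence window in their own promoter peak, the 19 with E2F letters had a median line difference of 0.50 and the 13 without had −0.22, while the ranges overlapped (−0.72 to 1.41 with the letters and −0.54 to 0.99 without). Under the combination the medians of the same genes were −0.06 and −0.07. By CCAAT letters the medians of the line difference were −0.10 with them (19 genes) and 0.25 without (13 genes). These are descriptions of groups formed after the line differences were known, and they were not tested. Left out for want of a window were MCM5 (line difference 0.03), GINS4 (0.99), POLD3 (1.16), RPA2 (0.98) and RPA3 (1.11). Their letters were not read and could move these medians.

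MCM3 also differed between the lines outside its promoter. Its 4 distal peaks, all upstream, were each higher in JJN3: by 3.07 ± 0.26 at 8228 bp from the start (chr6:52293109-52293382, adjusted p = 7.44e-16), by 1.90 ± 0.15 at 11776 bp (chr6:52296657-52297612, adjusted p = 2.82e-17), by 1.70 ± 0.39 at 20276 bp and by 1.05 ± 0.40 at 34234 bp. The peak nearest to the gene averaged 24.3 ± 1.96 CPM in JJN3 and 2.79 ± 1.63 CPM in KMS11. The next averaged 67.0 ± 13.6 CPM in JJN3 and 18.1 ± 0.917 CPM in KMS11. The farthest (chr6:52319115-52319420) did not follow this pattern by treatment: it held 35 counts under pomalidomide, 3 under GNE-781, 25 under the combination and 0 under DMSO in JJN3, against 15, 7, 19 and 14 counts in KMS11. Set against a chosen floor of 3 counts in the JJN3 DMSO library, its JJN3 level was 5.17-fold under pomalidomide, 5.37-fold under the combination and 0.853-fold under GNE-781. These ratios come from single libraries and take in no error of the counts or spread between libraries. The difference between the lines in the pomalidomide effect there, which draws on the combination libraries too, was 3.34 ± 0.89. It had the lowest p of any member in that comparison but was not called (edgeR's quasi-likelihood test, adjusted p = 0.109).

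**Figure D4:**
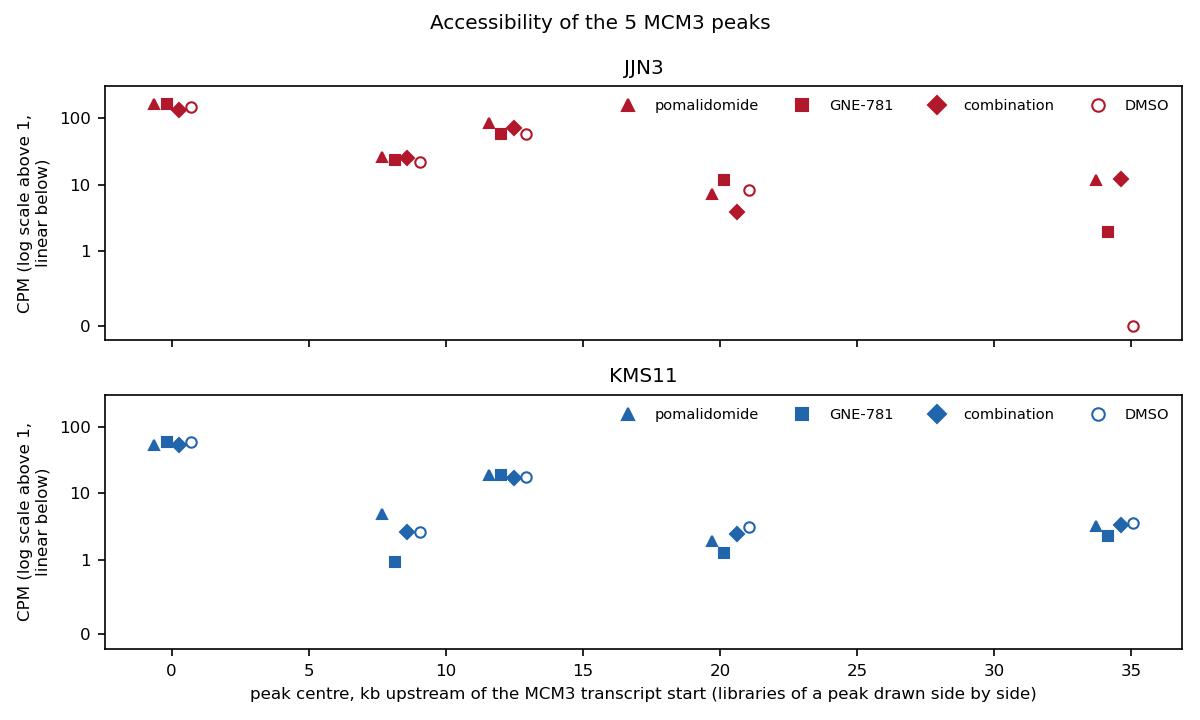
Accessibility in CPM (vertical axis, logarithmic above 1 and linear below) of the 5 MCM3 peaks by the distance of their centre upstream of the transcript start, JJN3 above KMS11, with 1 symbol per treatment side by side. The promoter and the 3 nearer distal peaks are higher in JJN3, and the peak farthest out is at 0 under DMSO and at 11.7 and 12.1 CPM under pomalidomide and the combination in JJN3.

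Other distal peaks differed between the lines in both directions. Upstream of GMNN a peak averaged 12.3 ± 5.54 CPM in JJN3 and 2.26 ± 0.695 CPM in KMS11 (2.42 ± 0.33, adjusted p = 4.20e-09), and inside CHAF1A a peak (chr19:4423660-4423996) averaged 8.17 ± 1.70 CPM in JJN3 and 1.54 ± 0.875 CPM in KMS11 (2.54 ± 0.41, adjusted p = 4.09e-07). All 4 peaks inside the authors' GINS3 transcript were lower in JJN3 by the full rule, the strongest at −2.01 ± 0.29 (chr16:58338183-58338808, adjusted p = 2.82e-08). Peaks inside ORC3, the largest difference −2.54, and inside CHAF1B (−1.92) were also lower in JJN3, and those near RFC3 (1.66) and inside TYMS (1.72) were higher.

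The line differences were set beside those of the neighbourhood. For each member peak, the median line difference of the tested peaks of other genes within 1 Mb was taken. The sign agreed at 33 of the 38 promoters (86.8%, against 77.4% of all promoter peaks), and the median over promoters was 0.05 for the surroundings and 0.11 for the peak minus its surroundings, against 0.24 for the peaks themselves. All 5 called promoters sat in surroundings that were also higher in JJN3, by 0.80 at MCM3, 0.87 at RPA3, 0.77 at PCNA, 1.07 at POLD3 and 0.48 at POLA2. In that order, the promoters had a line difference above 70.4%, 54.7%, 65%, 65.5% and 92.3% of these neighbouring peaks. Of the 21 called peaks 20 had the sign of their surroundings (95.2%, against 79.1% of all called peaks), the exception being the peak in CHAF1A. The 21 are not independent: all peaks listed under MCM3 and GINS3 are among them, and peaks of the same gene share nearly the same surroundings. Among the promoters, RPA2 and POLA2 stood highest against their neighbours (above 93.3% and 92.3% of them), and RRM2 lowest (above 17.1%). How much of the line differences is shared with such neighbourhoods, through DNA copy number or otherwise, was not tested.

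**Figure D5:**
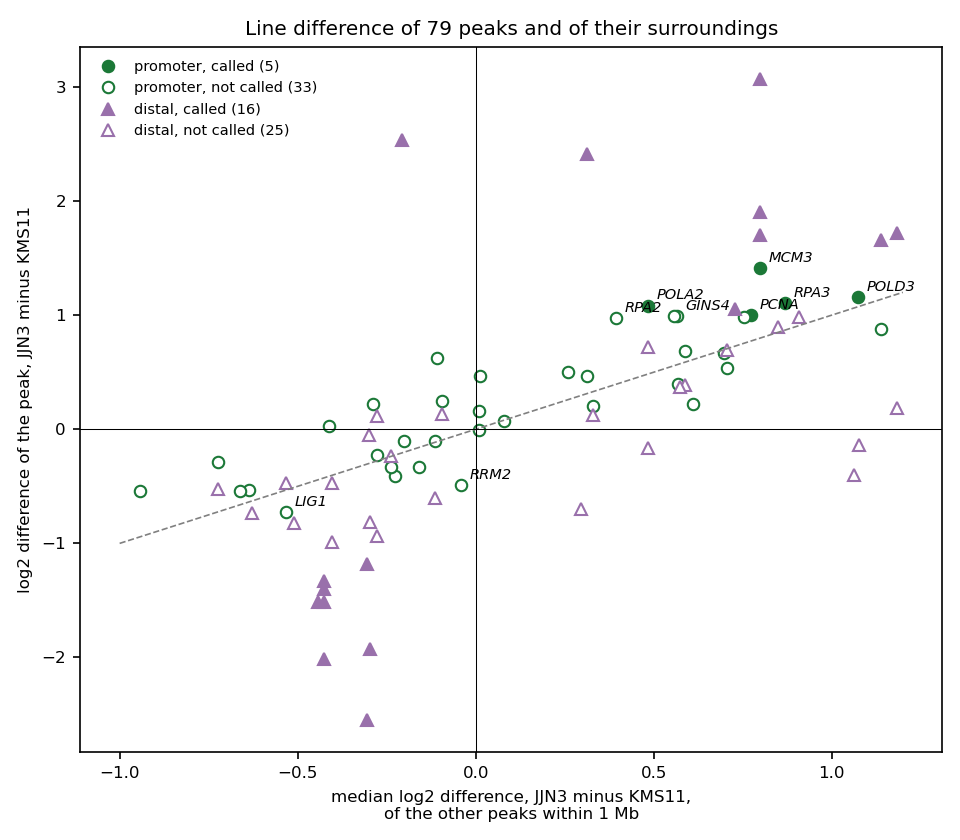
Log2 difference of each of the 79 member peaks, JJN3 minus KMS11 (vertical axis), against the median difference of other genes' peaks within 1 Mb (horizontal axis). Circles are promoters, triangles distal peaks, filled symbols were called, and the dashed line marks equal values. The 5 called promoters lie at positive values on both axes.

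No member's drug response was called different between the lines. By edgeR the pomalidomide effect differed between JJN3 and KMS11 at 0 of 79 member peaks (background 0.0675%) and the GNE-781 effect at 0 of 79 (background 0.00964%). At an unadjusted p under 0.05 there were 4 and 7 (background 7.99% and 7.14%). DESeq2 called 0 of all 62234 peaks for either drug, so its 0 calls say nothing about the members. The drugs were taken as additive here, so each drug's effect draws on the combination libraries as well as its own. With 1 library for each line and treatment this comparison leaves 2 residual degrees of freedom, so large differences could go uncalled.

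Some members without a promoter peak under their own symbol did have an open start. By RefSeq gene starts, used for 46 members (MCM4 was not used), every one of the 46 had a peak within 1000 bp, and 11 such peaks were listed under another symbol in the authors' annotation. MCM2 had its peak under TPRA1, ORC6 under VPS35, FEN1 under MIR611, RPA1 under AC130689.1, CDC45 under UFD1L, ORC3 under RARS2, GINS3 under RP11-481J2.3, DUT under RP11-154J22.1, TYMS under TYMSOS and a further PCNA start peak under CDS2, which are shared or neighbouring starts. None of the 11 was called under the combination. The peak listed under CDS2 (chr20:5127528-5127884) had the largest change of them, −1.04 ± 0.35 (adjusted p = 0.0708), and its log2 ratio was −0.83 in JJN3 and −1.06 in KMS11. MCM2 had −0.40 ± 0.20 (adjusted p = 0.269), TYMS −0.38 ± 0.18 (adjusted p = 0.247) and RPA1 0.51 ± 0.24 (adjusted p = 0.249). A peak listed under UMAD1 and near another start of RPA3 had −0.82 ± 0.27 (adjusted p = 0.058) and was called higher in JJN3, by 1.14 ± 0.19 (adjusted p = 5.38e-07). One distal peak of PCNA (chr20:5119301-5120348) covers a second RefSeq start of that gene (chr20:5119909-5120208), and it changed by −0.45 ± 0.20 under the combination (adjusted p = 0.198).

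Further gene lists were counted in the same way. Of 43 further replication genes, 32 had promoter peaks, 38 in all, and 0 were called under the combination by edgeR (background 1.69%), with 5 at an unadjusted p under 0.05 (background 10.1%). Of 31 distal peaks 3 fell (background 5.85% called, with 3.29% lower), 1 at ATAD2 and 2 in POLA1, the catalytic subunit of polymerase alpha, by 1.24 ± 0.39 and 1.14 ± 0.32. Of 30 mitotic genes, 22 had 23 promoter peaks, with 0 called by edgeR and 3 at an unadjusted p under 0.05, and 1 of 19 distal peaks fell, near NUSAP1, against the same background. Of 17 cyclin E and E2F genes, which act upstream of S phase entry, 1 of 16 promoter peaks was called: the E2F1 promoter peak (chr20:33685126-33686099) fell by 1.22 ± 0.24 under the combination (adjusted p = 0.000844). Of their 30 distal peaks 3 fell, 2 near CCNE2 and 1 at E2F5, and 1 rose, at TFDP2 (background 2.56% higher).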

How the data were processed

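ATAC-seq of JJN3 and KMS11 cells under DMSO, pomalidomide, GNE-781 or both gave 8 libraries, grouped by their line and treatment labels. The deposited table holds raw counts, whole reads per peak and library with no normalization, over 1 set of 62528 peaks (GRCh38) with the authors' nearest transcript for each. Per the submitters' processing notes, the named tools include MACS2 2.1.1.20160309, Bowtie2 2.3.5.1, Trim Galore 0.6.4 with cutadapt 2.5, and SAMtools 1.10; how reads were filtered, shifted and counted is not given in the sources used here, and a joint peak set favours the deeper libraries.

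Peaks with a mean of at least 2 CPM were kept (62234; 294 removed), scaled by TMM factors and tested, two-sided, in R 4.3.3 with edgeR 4.0.16 (quasi-likelihood). The model had treatment and line, leaving 3 residual degrees of freedom beside 62.8 prior ones. The line pairs the libraries because it is the same cell line; without that block no peak of the series was called for any treatment. The labels do not say that libraries came from separate cultures, so p-values measure only how far these samples spread, possibly for technical reasons. Line calls also needed a log2 difference of at least 1. A second model held line-by-drug terms, with the drugs taken as additive and the combination counted under both (2 residual degrees of freedom). Counts were also summed per gene over its promoter or distal peaks. Log2 ratios within a line used a prior count of 2. The fit was tested on simulated data. Alternatives were other scaling, other filters, fewer libraries, no block, other promoter distances, RefSeq starts, leaving out each library and DESeq2 1.42.0. Genes were named if called, if among the 3 lowest p-values per drug and peak class, the 10 lowest in the line comparison, the 5 highest or lowest promoter levels, or the largest combination change of a complex; others are named as chosen after their values were seen, among them the distal peaks close to a threshold. The members, lists and rules were chosen with earlier results of these data known. The deposited table does not pair distal peaks with the genes they act on, and genome sequence beyond RefSeq promoter windows was not used here.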

Additional observations from a re-analysis of the deposited data

Results flagged for a closer look

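Among the 21 member peaks called between the lines, 1 of the 42 groups of 4 libraries held a library far from the other 3. At the distal peak of DUT, the JJN3 combination library stood at 3.39 CPM, with 1.00 CPM in the nearest JJN3 library and 0.641 CPM in the lowest. The gap of 0.870 of the range exceeds Dixon's 95% critical value, which chance passes in about 1 of 20 groups. The 4 libraries of a line differ in treatment, and this one rests on 7 counts.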

How the results depend on the processing

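Both combination calls rest on few libraries. The member count of 2 was 1 with cyclic loess offsets, 1 with a mean CPM of at least 5, 0 without the line as a replicate block and 0 by DESeq2, and leaving out 1 library gave 0 to 3. The RRM2 promoter sum (1 call) gave 0 with the libraries of the 2 treatments only, without the replicate block, at a promoter distance of 2500 bp and by DESeq2, and 0 to 1 with 1 library left out. The 4 distal sums became 2 with loess offsets, 0 without the block and 0 by DESeq2, with 0 to 4 on leaving out a library. With the libraries of the 2 treatments only, GNE-781 called 1 member, the RFC1 distal peak (adjusted p = 0.0186; background 0.0798%). The combination against GNE-781 called 1 in such a fit (background 1.83%). Over all peaks, the combination called 4.61% with loess offsets, 5.36% at a mean CPM of at least 5, 0% without the block and 0.633% by DESeq2. Leaving out single libraries also moved the number of calls over the whole series. Without single libraries the counts ran 0 to 1 for pomalidomide, 0 to 1 for the combination against GNE-781 and 21 to 25 for the lines, and the promoter medians ran −0.0991 to 0.0948 for pomalidomide, −0.0758 to 0.0145 for GNE-781 and −0.163 to 0.0044 for the combination. A mean CPM of at least 5 removed small distal peaks and left 13 line calls. Of the 49863 peaks of the series then tested, 30.2% were called between the lines, against 31.9% in the main fit. At single peaks, the TK1 promoter turned to −0.118 under pomalidomide and −0.0598 under the combination without the KMS11 DMSO library (up to 0.682 and 0.733 without others), and the GINS3 distal peak to 0.113 under GNE-781 without the KMS11 GNE-781 library (down to −1.94 without others). The POLD3 promoter under the combination turned to −0.0147 without the block, −0.296 without the KMS11 DMSO library and −0.046 without the KMS11 combination library, and reached 0.752 without the JJN3 DMSO library. The RFC1 and DUT calls were lost without the block (adjusted p = 1 for RFC1), and RFC1 had an adjusted p of 0.0654 by DESeq2; DUT had 0.106 with loess offsets. The causes of these shifts were not tested. Distal changes are the least precise: 8 of 41 combination intervals lay within 2-fold, against 33 of 38 at promoters, distal peaks mostly held fewer counts, and intervals cover the spread between these libraries only.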
